A study of Sus scrofa with 8 samples.

Results

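The zinc finger genes of pig chromosomes 2 and 6 were examined in untreated pig embryonic fibroblasts (PEFs), which grew out of 35-day-old Large White fetuses and were cultured for 24 h before collection. ChIP-seq, which sequences the DNA bound by an antibody's target, was carried out for H3K4me3, H3K27ac and CTCF, with 2 replicates each, so the 6 libraries fall into 3 groups named by the antibody. The labels list 1 input for the histone marks and another for CTCF. The labels do not say whether the replicates came from separate fetuses or cultures. No treatment, genotype or time point was compared, and the 2 input libraries were not analysed here. Members were the protein-coding genes of the RefSeq annotation of Sscrofa11.1 on these chromosomes whose symbol is ZNF, ZSCAN or ZKSCAN followed by a number. The rule found 94 of 19487 protein-coding genes, 14 on chromosome 2 and 80 on chromosome 6, and 3 of them are ZSCAN genes (ZSCAN4, ZSCAN20 and ZSCAN30). No ZKSCAN gene met it. A member was called clustered where the gap to the next member's gene record was at most 50 kb. That held for 51 members in 19 clusters, 1 on chromosome 2 and 18 on chromosome 6, and the other 43 were single. The clusters held between 2 and 5 members and spanned 23.3 to 218 kb.

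Zinc finger genes of this kind form the largest family of DNA-binding factors in mammals and arose largely by tandem duplication, which left many of them side by side. Each finger is a short loop held by a zinc ion between cysteines and histidines, and a row of fingers reads a stretch of DNA. Many members also carry a KRAB domain, which recruits TRIM28 and histone methyltransferases to silence transposable elements and genes. H3K4me3 marks the starts of active or poised genes, H3K27ac marks active promoters and enhancers, and CTCF, itself a zinc finger protein, marks insulators and the anchors of chromatin loops.

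The coding sequences bore out the label. Translated from the genome, members held between 1 and 28 Cys-His fingers with a median of 10, and the medians were 11 in clustered and 9 in single members. Letters of the KRAB box were found in 42 members, 27 clustered and 15 single, and a miss says only that the searched letters were absent. In 62 members every finger lay in the last coding exon. The reading frame of 4 annotated members held a stop (ZNF554, ZNF19, ZNF416 and ZNF132).

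The cell type was checked with marker genes. All 13 fibroblast markers examined (collagens, PDGF receptors, THY1, VIM and others) had H3K4me3 and H3K27ac at the transcription start site (TSS) in every library of these marks. Of 14 markers of other cell types, 6 had H3K4me3 in both replicates (EPCAM, SOX2, CDH1, KRT18, MYOD1 and APOA1), the highest being the epithelial gene EPCAM at folds of 42.7 and 20.6. H3K27ac in both replicates was found at 2 of the 14, APOA1 and MYOG, and 7 had neither mark in any library. APOA1, a liver apolipoprotein, was the only one with both marks in both replicates. The lists held 37932 and 43516 peaks for H3K4me3, 74983 and 81164 for H3K27ac, and 40289 and 44682 for CTCF. They give no read counts, so the depth behind a peak is unknown.

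Most members carried both histone marks at their start. A peak was counted where it overlapped the window of 1 kb on either side of the TSS, taken as the 5′ end of the gene record. H3K4me3 was present in both replicates at 79 of 94 members (84.0%), against 68.9% of all protein-coding genes. H3K27ac was also present at 79 members, against 60.7% of all genes. Where the summit itself had to lie within 1 kb of the TSS, the counts were 62 for H3K4me3 and 69 for H3K27ac. The share of all genes under that rule was not computed. For each mark both replicates called the same 79 members, while each replicate alone called 69.6% of all genes for H3K4me3, and 61.3% and 62.7% for H3K27ac. No member had either histone mark in 1 replicate only, which held for 1.46% (H3K4me3) and 2.57% (H3K27ac) of all genes. Both marks in both replicates were found at 78 members (83.0%), against 58.9% of all genes, so 98.7% of the members with H3K4me3 had H3K27ac as well, compared with 85.5% of all genes with H3K4me3. A start with H3K4me3 in both replicates and H3K27ac in neither was found at 1 member, ZNF536, or 1.06%, against 8.25% of all genes. With 2 libraries a mark, the smallest p an exact permutation test between 2 groups of libraries can give is 0.333, so these shares are descriptions with no test.

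The 162 numbered zinc finger genes on other chromosomes had higher shares still, with H3K4me3 at 92.0% and H3K27ac at 88.9%. The 86 zinc finger genes on chromosomes 2 and 6 that carry only a locus number were lower, at 69.8% and 62.8%. Reads that map to several places were discarded by the authors, so the uniqueness of the sequence was measured with tiles of 100 bases mapped back to the genome. In the TSS windows, 98.3% of member tiles returned to their own place with a mapping quality above 5, as did 96.8% of tiles of the other genes on these chromosomes and 93.2% of tiles of the zinc finger genes with a locus number. No member fell below 50%, and the lowest were ZNF304 at 53.8% and ZNF300 at 69.2%.

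**Figure D1:**
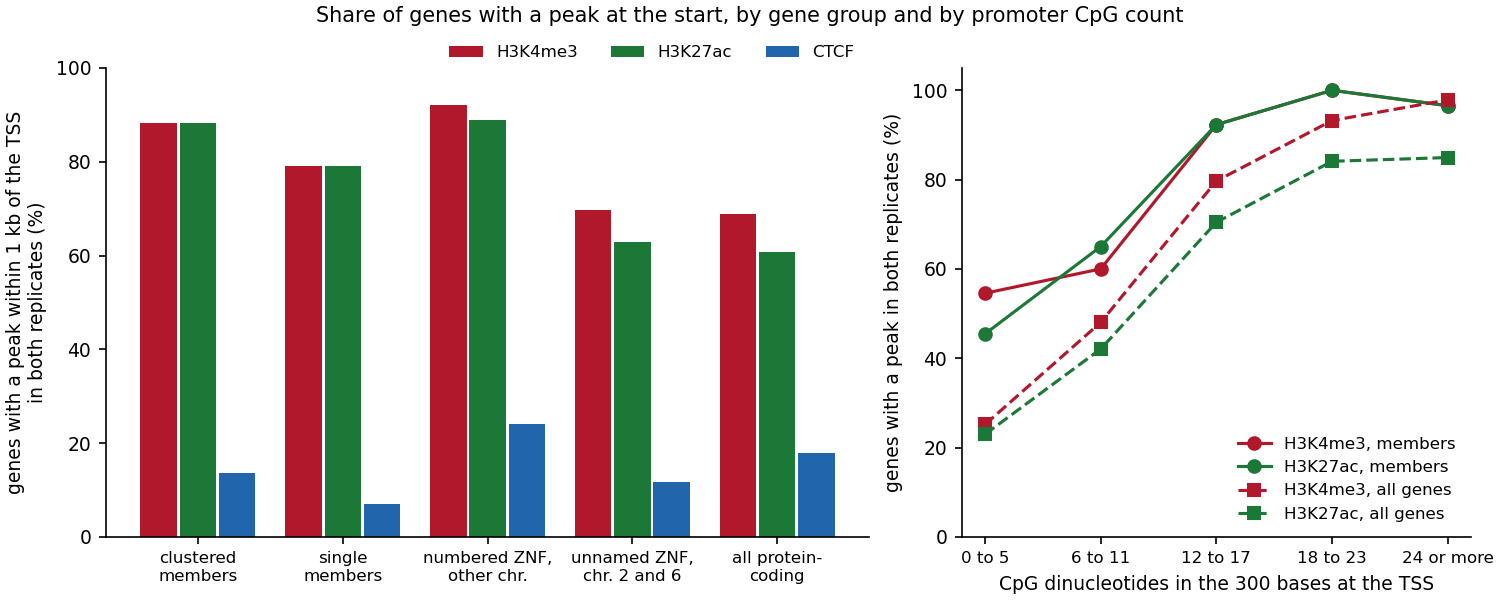
Left, share of genes (%) with a peak within 1 kb of the TSS in both replicates, for clustered and single members, 2 other sets of zinc finger genes and all protein-coding genes. Right, the shares for H3K4me3 and H3K27ac by the number of CpG dinucleotides in the 300 bases at the TSS, for members (solid) and all genes (dashed). Members reach 92.3% or more from 12 CpG on, and 54.5% (H3K4me3) and 45.5% (H3K27ac) at 0 to 5 CpG, where all genes have 25.2% and 22.96%.

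The height of the peaks was close to that at other genes. Fold enrichment is the peak caller's ratio over the control at the summit, and for each start the highest peak was taken. The median H3K4me3 fold at member starts was 48.4 and 24.9 in replicates 1 and 2, against 52.0 and 25.2 over all genes with a peak. The H3K27ac medians were 16.6 and 20.2, against 16.4 and 19.2. Replicate 1 gave the higher H3K4me3 fold at 78 of the 79 members, and replicate 2 the higher H3K27ac fold at 72, so folds were compared only within a library. The peaks were narrower than over all genes, with median widths of 2368 and 2470 bp for H3K4me3 (all genes 2740 and 2902 bp) and 1775 and 1800 bp for H3K27ac (2441 and 2421 bp). Other zinc finger genes shared this. Those with a number on other chromosomes had 2388 and 2539.5 bp for H3K4me3 and 2016 and 1946.5 bp for H3K27ac. Those with a locus number had 1971.5 and 2019.5 bp, and 1398 and 1367 bp. Across the 79 members the fold in replicate 1 followed that in replicate 2 with a Spearman rho of 0.94 for H3K27ac and 0.51 for H3K4me3. Over all genes these were 0.94 and 0.75, and the points share a library, so they are given as descriptions.

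**Figure D2:**
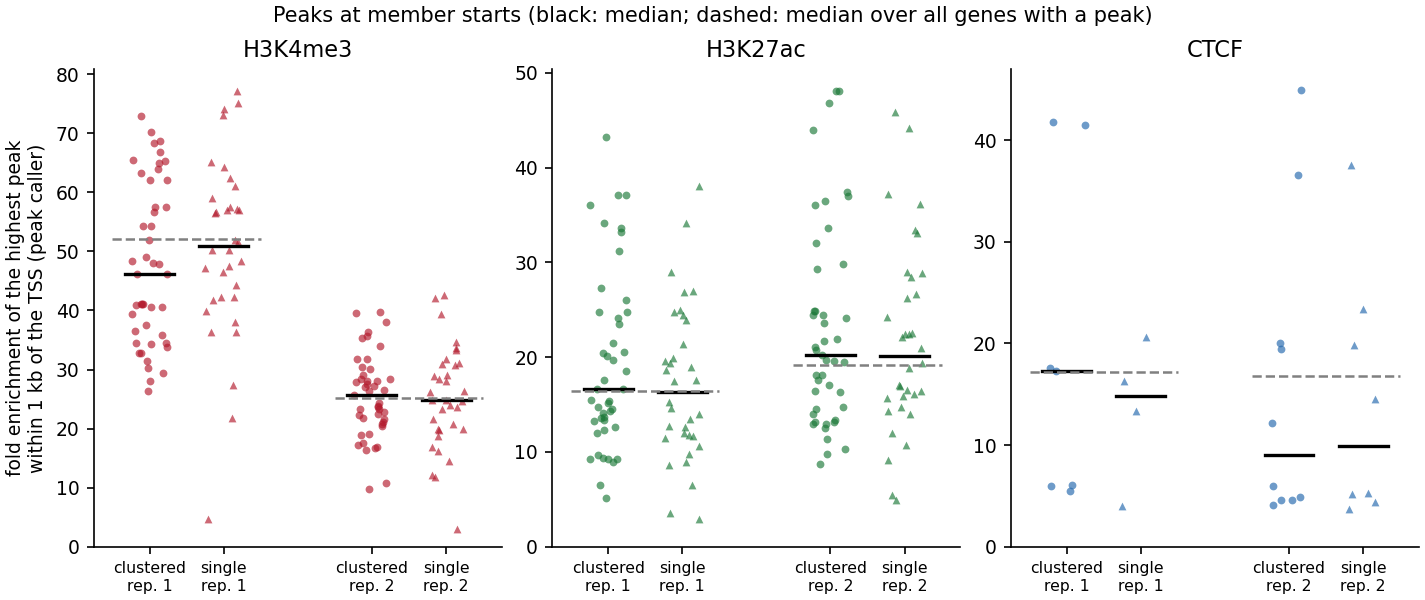
Fold enrichment of the highest peak within 1 kb of the TSS for each clustered (circles) and single (triangles) member, by mark and replicate, with the median of each group (black line) and of all genes with a peak (dashed line). Clustered and single members overlap throughout, and the H3K4me3 folds of replicate 2 (median 24.9) lie far below those of replicate 1 (median 48.4).

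The highest mean H3K4me3 folds belonged to ZNF496, ZNF821, ZNF317, ZNF408, ZNF8 and ZNF134. ZNF496 on chromosome 2, whose protein joins fingers to SCAN and KRAB domains, had 74.0 in replicate 1 and 39.4 in replicate 2. The searched KRAB letters were not found in ZNF496, so it is counted among the members without them. ZNF821 reached 77.1 and 33.6, and ZNF317 reached 65.1 and 42.2. ZNF408, a gene known from inherited disease of the retinal vessels, had 64.4 and 42.6. ZNF8 had 75.1 and 30.9, and ZNF134 had 70.2 and 35.7. Their order differed between the replicates, with ZNF821 first in replicate 1 and ZNF408 in replicate 2. Among the lowest, chosen after the values were seen, ZNF469 had 4.64 and 2.96. ZNF469 is the gene of brittle cornea syndrome and is tied to collagen fibres. A far higher H3K4me3 peak lay inside its gene record, at 61.0 and 19.1, with its summit 2361 and 2320 bp from the gene start.

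H3K27ac was ordered differently. ZNF614 led with 43.3 and 46.9. The shared start of ZNF568 and ZNF829 had 37.1 and 48.1. ZNF568 is known from mouse, where its counterpart silences a placental transcript of the growth factor gene Igf2. ZNF521, a factor of progenitor cells that holds back adipocyte differentiation, had 38.1 and 45.9. ZNF524 followed with 36.1 and 44.0, and ZNF408 with 34.1 and 44.2. ZNF408 was in the leading 6 for both marks. ZNF134, among the leading 6 for H3K4me3, had only 5.17 and 9.75 for H3K27ac, the third lowest mean of the 79 members (chosen after the values were seen). The lowest was ZNF296 with 2.92 and 4.96. Across members the H3K4me3 and H3K27ac folds had a Spearman rho of 0.32 in replicate 1 and 0.23 in replicate 2 (n = 78), compared with 0.35 and 0.47 over all genes.

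The 79 starts with H3K4me3 rested on 76 peaks, because 3 peaks were each shared by a pair of members that run apart from a common start region. The same 3 pairs shared their H3K27ac peak. ZNF568 runs to the left and ZNF829 to the right, with their starts 20 bp apart, ZNF784 and ZNF581 lie 47 bp apart, and ZNF404 and ZNF45 lie 77 bp apart. Members of a pair are therefore 1 measurement, not 2. The sequences between the starts of each pair show how little separates them. Each is read on the plus strand of Sscrofa11.1 with 60 bases beyond either start, in lower case with CpG dinucleotides in capitals.
ZNF568/ZNF829, chr6:46121446-46121586: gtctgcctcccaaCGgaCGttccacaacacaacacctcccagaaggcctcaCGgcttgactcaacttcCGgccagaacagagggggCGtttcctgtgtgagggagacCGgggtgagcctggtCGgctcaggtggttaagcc
ZNF784/ZNF581, chr6:59741305-59741472: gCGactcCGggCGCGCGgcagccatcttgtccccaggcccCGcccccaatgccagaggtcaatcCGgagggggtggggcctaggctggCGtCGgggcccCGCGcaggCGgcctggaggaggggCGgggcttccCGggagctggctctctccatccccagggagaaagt
ZNF404/ZNF45, chr6:50721473-50721670: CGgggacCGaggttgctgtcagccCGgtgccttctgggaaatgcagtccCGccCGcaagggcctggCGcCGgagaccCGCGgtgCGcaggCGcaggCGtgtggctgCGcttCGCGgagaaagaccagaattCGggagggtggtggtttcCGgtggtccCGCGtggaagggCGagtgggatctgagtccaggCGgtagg

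The stretches hold 7, 14 and 21 CpG. Their peaks did not follow that order. The ZNF568/ZNF829 peak had the highest H3K4me3 fold of the 3 in replicate 1 (54.3, against 46.3 and 32.8) and the lowest in replicate 2 (23.3, against 28.4 and 28.1). For H3K27ac it was highest in both replicates, at 37.1 and 48.1, against 24.8 and 24.9 for ZNF784/ZNF581 and 9.24 and 13.0 for ZNF404/ZNF45. In all, 9 members had a protein-coding neighbour that runs away from them on the other strand, does not overlap them and starts within 1 kb. The other 3 partners were UIMC1 for ZNF346 (39 bp), IRGQ for ZNF576 (74 bp) and COX7A1 for ZNF146 (164 bp). The share of all genes with such a neighbour was not computed, so the count of 9 cannot be read as many or few.

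The number of CpG at the start went with the marks. Counted over the 300 bases from 250 before the TSS to 50 after it, members held 1 to 51 CpG with a median of 18, against 16 in all genes. The median was 20 in members with H3K4me3 and 6 in the 15 without it, and in all genes 23 and 4. From 12 CpG on, H3K4me3 was found at 61 of 63 members (96.8%), against 92.9% of all genes with as many CpG, and H3K27ac was found at 96.8%, against 81.6%. Under 12 CpG, each mark was found at 18 of 31 members (58.1%), against 34.3% of all genes for H3K4me3 and 30.6% for H3K27ac. With 24 or more CpG, H3K4me3 was found at 96.6% of members and 97.9% of all genes, so members did not exceed the background in that class. Among members with a peak, the fold did not go with the CpG count (Spearman rho 0.15 and 0.10 for H3K4me3, 0.04 and 0.06 for H3K27ac).

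ZNF541 stands against this relation, and its sequence is shown with those of ZNF496, which had the highest mean H3K4me3 fold, and ZSCAN4, which had no mark. They run 5′ to 3′ on each gene's own strand, with CpG in capitals, and they were picked for display after the values were seen.
ZNF541, chr6:53311385-53311684, minus strand: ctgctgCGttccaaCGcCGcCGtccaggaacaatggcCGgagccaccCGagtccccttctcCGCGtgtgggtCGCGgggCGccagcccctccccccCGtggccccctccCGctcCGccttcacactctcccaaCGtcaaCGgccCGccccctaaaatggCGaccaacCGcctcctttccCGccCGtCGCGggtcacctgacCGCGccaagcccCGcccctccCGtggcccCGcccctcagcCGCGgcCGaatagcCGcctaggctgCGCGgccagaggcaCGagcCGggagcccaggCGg
ZNF496, chr2:57053167-57053466, plus strand: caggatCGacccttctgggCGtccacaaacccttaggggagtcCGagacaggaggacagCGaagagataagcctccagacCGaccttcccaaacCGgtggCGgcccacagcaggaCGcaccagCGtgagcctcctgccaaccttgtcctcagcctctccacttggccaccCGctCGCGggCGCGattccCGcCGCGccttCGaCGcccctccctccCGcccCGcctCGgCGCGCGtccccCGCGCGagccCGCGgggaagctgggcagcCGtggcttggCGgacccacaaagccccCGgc
ZSCAN4, chr6:62327399-62327698, plus strand: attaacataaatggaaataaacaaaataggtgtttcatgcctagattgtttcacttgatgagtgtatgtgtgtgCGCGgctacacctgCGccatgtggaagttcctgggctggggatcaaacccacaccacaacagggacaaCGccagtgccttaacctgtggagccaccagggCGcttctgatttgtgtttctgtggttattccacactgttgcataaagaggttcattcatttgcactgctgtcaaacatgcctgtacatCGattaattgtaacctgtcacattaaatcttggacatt

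ZNF541, which is known from germ cells, has 37 CpG, and no peak of any library lay within 1 kb. It was the only member with 24 or more CpG that had no H3K4me3 there (28 of 29 had it). ZNF496 has 33 CpG and ZSCAN4 has 6.

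Clustered members had both histone marks slightly more often than single ones. H3K4me3 was found at 45 of 51 clustered members (88.2%) and at 34 of 43 single members (79.1%), and the counts were the same for H3K27ac and in every library. The difference was 9.17 percentage points ± 0 (SD, n = 2 replicates) for each mark, a matter of a few genes. When neighbours were instead required to start within 50 kb of each other, which left 37 clustered members, it was 4.03 points. The medians of the folds were close, with H3K4me3 at 46.3 and 25.6 in clustered and 51.0 and 24.9 in single members, and H3K27ac at 16.6 and 20.2 against 16.4 and 20.2. In 13 of the 19 clusters every member had both marks in both replicates.

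On chromosome 2 the only cluster was the pair ZNF692 and ZNF672, at chr2:52288641-52313291. ZNF692 had an H3K4me3 fold of 28.1 and 10.9 and an H3K27ac fold of 9.68 and 14.8, both below ZNF672 in each library, where the H3K4me3 folds were 34.5 and 22.4 and those of H3K27ac 33.6 and 37.5. The H3K4me3 summits of ZNF672 lay 1676 and 1712 bp inside the gene, and the peak reached the window of the annotated start with its edge. No CTCF summit lay in the pair's span.

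On chromosome 6 there were 2 clusters of 5. The first, at chr6:45709663-45927775, spans 218 kb and holds ZNF567, ZNF382, ZNF529, ZNF260 and ZNF566. Each replicate had 6 H3K4me3 and 6 H3K27ac summits in it. The H3K4me3 folds were 49.1 and 21.6 at ZNF567, 34.4 and 22.3 at ZNF529, 48.4 and 27.6 at ZNF260, and 47.9 and 27.1 at ZNF566. The H3K27ac folds there were 13.6 and 18.1, 12.3 and 20.2, 20.5 and 24.4, and 16.7 and 18.1. ZNF382 had no peak at its gene start, and its nearest H3K4me3 summits, at 59.7 and 23.7, lay 3403 and 3370 bp inside the gene. CTCF had 2 summits in the span in each replicate, or 0.917 per 100 kb.

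The second cluster, at chr6:59703269-59767421, spans only 64.2 kb and holds ZNF579, ZNF524, ZNF865, ZNF784 and ZNF581, none of which had the KRAB letters. All 5 members had both marks. The H3K4me3 folds were 64.0 and 21.1 at ZNF579, 40.5 and 16.5 at ZNF524, 72.9 and 27.3 at ZNF865, and 46.3 and 28.4 at the shared start of ZNF784 and ZNF581. The span held 8 H3K4me3, 9 H3K27ac and 3 CTCF summits in each replicate, or 12.5, 14.03 and 4.68 per 100 kb. Other genes start within it, such as FIZ1 on the strand opposite ZNF524. The first cluster had 2.75 H3K4me3 summits per 100 kb, near the 2.14 and 2.23 of the whole chromosome, and the second was far denser. The spans held 7 and 8 protein-coding starts, so the second was also denser in gene starts.

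**Figure D3:**
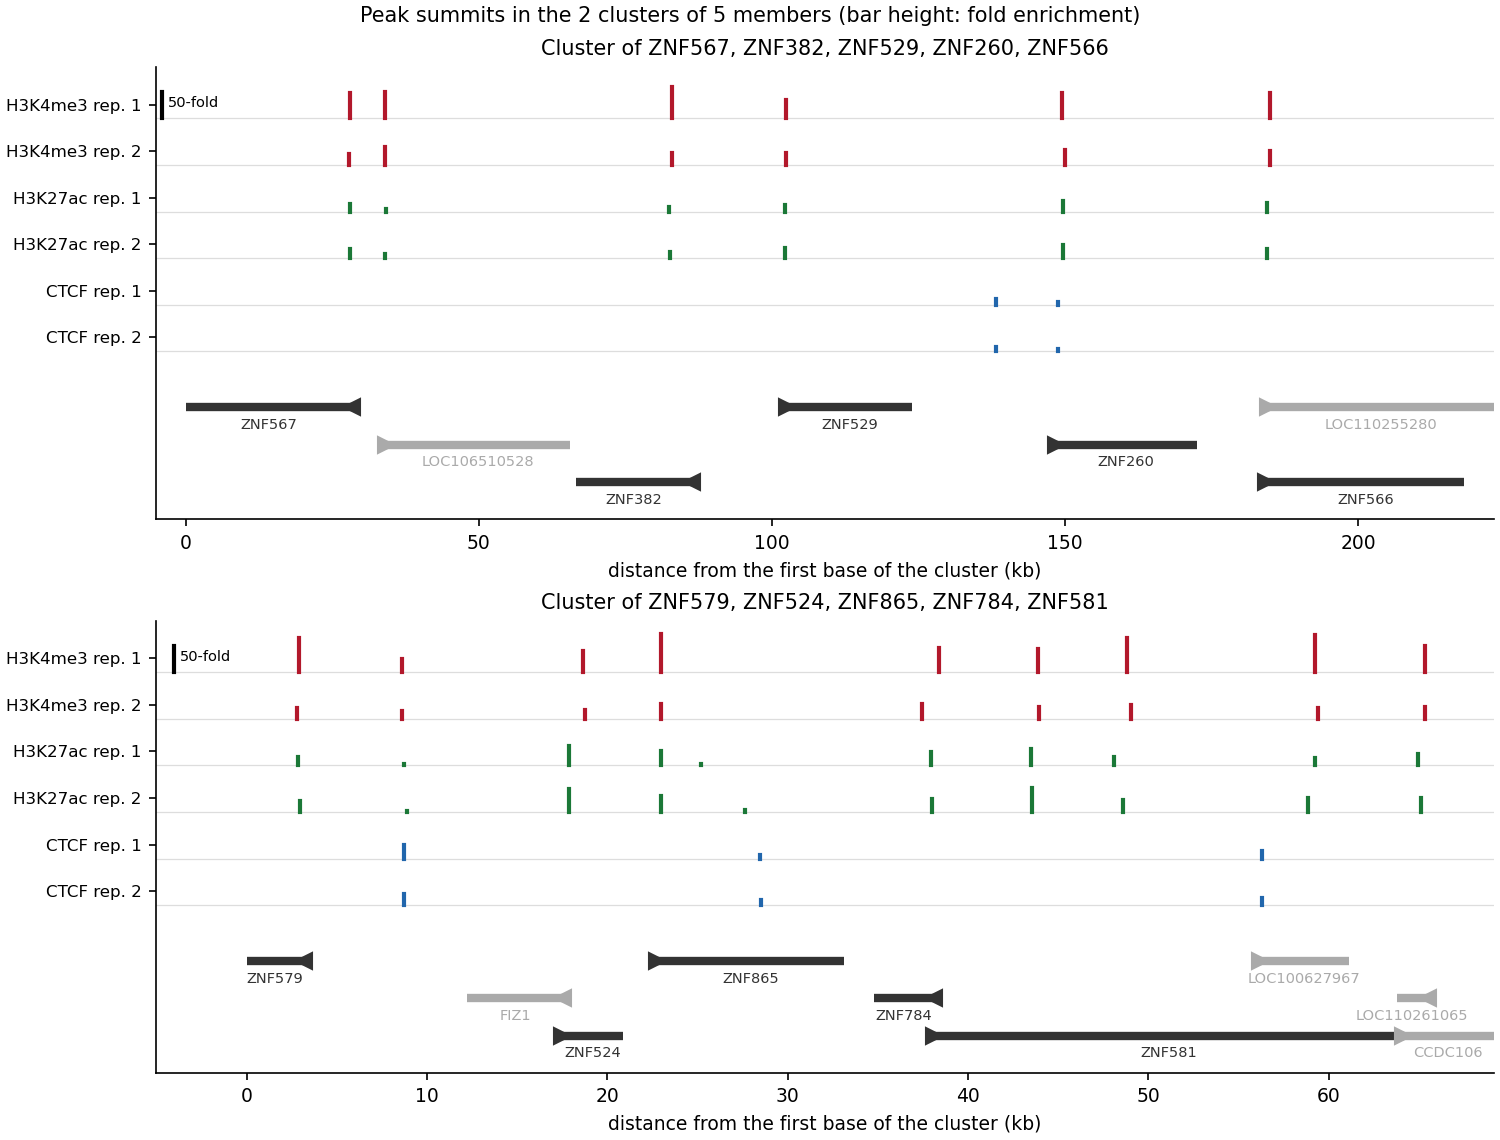
Peak summits in the 2 clusters of 5 members on chromosome 6, by mark and replicate. The horizontal axis is the distance from the first base of the cluster (kb), bar height is the fold enrichment on the scale of the 50-fold bar, dark lines are members, grey lines other genes, and arrowheads mark starts. In the upper cluster 6 H3K4me3 summits spread over 218 kb with 2 CTCF summits, and in the lower 8 fall within 64.2 kb with 3.

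The 15 members without H3K4me3 at the gene start were not all without H3K4me3. In 11 of them an H3K4me3 summit lay inside the gene record in both replicates, and in 5 (ZNF276, ZNF319, ZNF383, ZNF582 and ZNF436) the peak was within 1 kb of another annotated transcript start of the same gene. With any annotated start allowed, 84 of 94 members had H3K4me3 in both replicates. The share of all genes under this rule was not computed. Of the 15 members, 6 were clustered and 7 had the KRAB letters. In 14 of them (14.9% of members, against 26.1% of all genes) no library had a peak of any mark at the start. The exception was ZNF436, which had H3K27ac at 28.9 and 37.2, while its H3K4me3 peak (31.3 and 19.5) began 1525 and 1708 bp downstream of the start.

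ZNF554 on chromosome 2 had its nearest H3K4me3 summit 6433 and 6443 bp inside the gene, at a fold of 45.2 and 19.9. In ZNF300 it lay 15839 and 15835 bp inside, at 38.4 and 33.8. In ZNF276 it lay 3861 and 3830 bp inside, at 34.9 and 22.4. These 3 genes had strong peaks outside the window of the gene start, and that of ZNF276 was within 1 kb of another of its annotated transcript starts. ZNF19 overlaps its neighbour ZNF23, whose start peak (40.9 and 30.5) lay 6044 and 6133 bp inside ZNF19. ZNF319 had a peak of 54.2 and 20.8 at a later transcript start, with summits 13625 and 13570 bp downstream. In ZNF383 the peak began only 1123 and 1013 bp from the start, at 56.9 and 26.6, just outside the window. ZNF582 held the start peak of ZNF583 (66.9 and 29.1) at 5383 and 5250 bp, which is also near a transcript start of its own. For ZNF628 the nearest summit lay upstream, at 10449 and 10815 bp, with folds of 46.6 and 11.3, and others lay 12120 and 13186 bp inside the gene, at 18.5 and 21.6. ZNF436, ZNF582 and ZNF628 were named after the values were seen.

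In 4 of the 15 (ZNF416, ZSCAN4, ZNF132 and ZNF683, all but ZSCAN4 named after the values were seen) no H3K4me3 summit lay in the gene record in either replicate. ZSCAN4 is known from embryonic stem cells and the first cleavages of the embryo, where it acts at telomeres. Its nearest H3K4me3 summit was 15673 and 15650 bp downstream, at 15.2 and 6.06. ZNF683 is a factor of tissue-resident T cells, and its nearest H3K4me3 summit was 28752 and 28886 bp away. A CTCF summit with a fold of 29.9 in replicate 1 lay 4834 bp inside ZNF683. For ZNF416 and ZNF132 the nearest summits were upstream, at 4350 and 4290 bp and at 5220 and 5303 bp. ZNF541 had only a weak peak, 4.76 and 4.86, deep in the gene at 14542 and 14461 bp. The other 2 ZSCAN members had both marks at the start, ZSCAN20 with H3K4me3 at 39.8 and 24.9 and ZSCAN30 with 63.2 and 34.0. In the TSS windows of the 15 members, 96.4% of the 100-base tiles mapped uniquely.

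**Figure D4:**
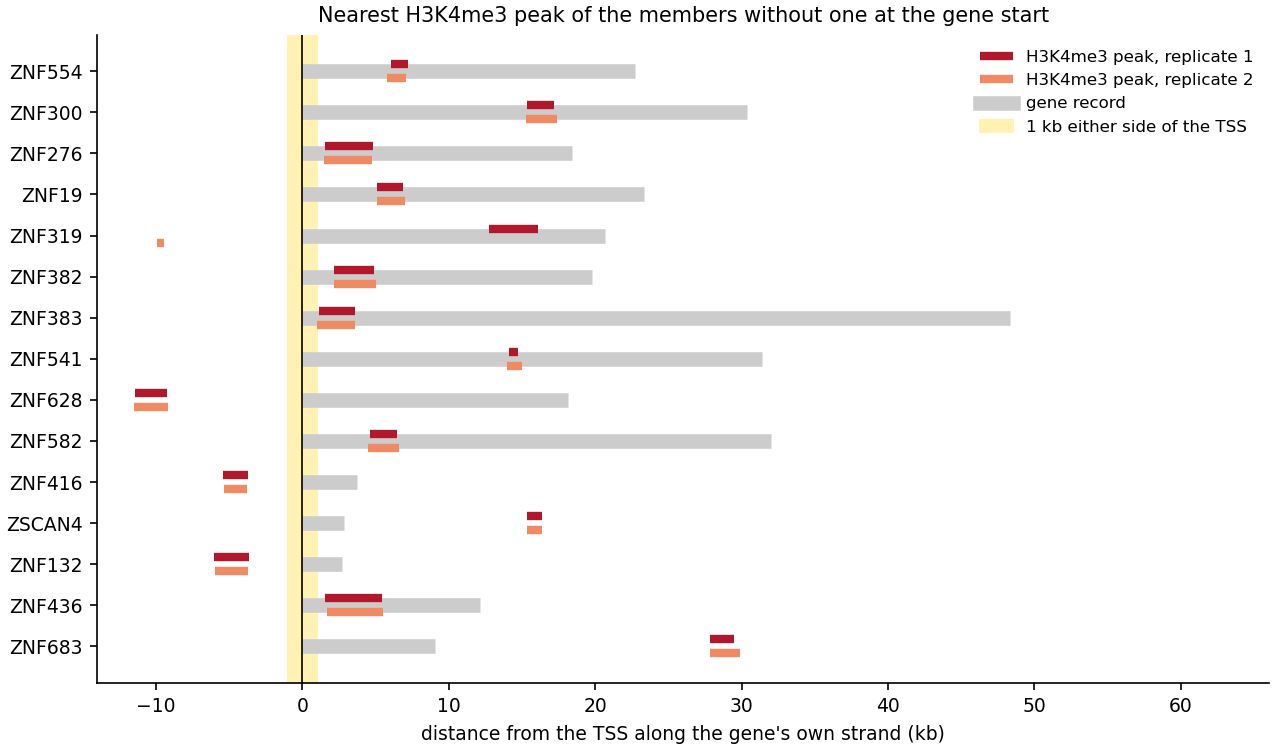
Nearest H3K4me3 peak of each replicate for the 15 members with none within 1 kb of the gene start (yellow), as distance from the TSS along the gene's own strand (kb), with the gene record in grey. For 9 members the nearest peak lies inside the record in both replicates, for ZNF628 it lies upstream although others lie farther off inside the gene, and for ZNF319 the nearest peak of replicate 2 is a weak one upstream (fold 2.47) rather than the one at 13570 bp.

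CTCF was found at the start of few members. A peak was present in both replicates at 10 of 94 (10.6%), against 17.9% of all genes, 24.1% of the numbered zinc finger genes on other chromosomes and 11.6% of those with a locus number. Replicate 1 called 11 members (11.7%, against 18.4% of all genes). Replicate 2 called 18 (19.1%, against 22.5%), so in that replicate members were closer to all genes. A peak in 1 replicate only was found at 9 members (9.57%, against 5.02% of all genes). With any annotated transcript start the count was 16, and the share of all genes under that rule was not computed. Of the 10 members, 7 were clustered (13.7%) and 3 were single (6.98%), and 7 had the KRAB letters. The mean difference between clustered and single members was 2.71 ± 2.42 points (SD, n = 2), from 4.42 with the first replicate and 1.00 with the second, which is about as large as its spread. All 10 also had H3K4me3 in both replicates.

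The highest CTCF folds at a start were those of ZNF667 and ZNF583, which lie in the same cluster on chromosome 6. ZNF667 had 41.8 and 44.9, with summits 71 and 68 bp upstream of its TSS. ZNF583 had 41.5 and 36.6, with summits 455 and 446 bp upstream. ZNF593, which codes for a small nucleolar protein of ribosome assembly, had 20.6 and 23.4, at 19 and 10 bp upstream. ZNF614 had 17.6 and 20.01, ZNF432 had 17.3 and 19.5, and ZNF304 had 16.4 and 19.8. The median over all starts with a CTCF peak was 17.2 and 16.8, so ZNF667 and ZNF583 stood far above it and the other 4 near it. The remaining 4 of the 10, named after the values were seen, were ZNF346 (13.3 and 14.6), ZNF23 (6.03 and 12.2), ZNF599 (5.51 and 5.95) and ZNF260 (5.93 and 4.10). ZNF346 codes for a protein that binds double-stranded RNA. ZNF304 had the least unique TSS window of all members (53.8% of tiles).

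Among the 9 starts with CTCF in 1 replicate only, 8 had a fold between 3.71 and 5.28. The exception was ZNF423, with 37.6 in replicate 2. Its CTCF peak in replicate 1 had a fold of 32.0, but its nearer edge lay 1156 bp from the start, outside the window. The summits of the 2 replicates were 1624 and 1626 bp inside the gene.

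The core of the known CTCF motif, written as CC, any 3 bases, AG, any 2 bases and GGC, was searched within 100 bases of each summit on both strands. These letters were found at 42.7% and 40.7% of all CTCF summits on chromosomes 2 and 6, and at 3.36% and 3.51% of places 1 kb away. At the member starts, 4 of 11 and 4 of 18 summits held them. In gene bodies of members, 31 of 53 and 33 of 59 summits did (58.5% and 55.9%). In the 300-base promoters the letters occurred in 11 of 94 members (11.7%), against 11.6% of all genes. Of the 6 members with the highest CTCF fold, ZNF593 and ZNF614 held them at the summit in both replicates, and ZNF667, ZNF583, ZNF432 and ZNF304 did not. The sequences within 50 bases of the replicate 2 summit are shown for the 4 members whose replicate 2 peak holds the letters and for the leading pair, on each gene's own strand with the matched letters in capitals.
ZNF346, chr2:80895346-80895446, minus strand: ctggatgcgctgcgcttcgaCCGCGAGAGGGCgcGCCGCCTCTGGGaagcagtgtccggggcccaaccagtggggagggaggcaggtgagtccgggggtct
ZNF614, chr6:58135449-58135549, minus strand: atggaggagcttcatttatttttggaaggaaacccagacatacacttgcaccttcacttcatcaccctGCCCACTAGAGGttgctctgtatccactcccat
ZNF593, chr6:83590780-83590880, plus strand: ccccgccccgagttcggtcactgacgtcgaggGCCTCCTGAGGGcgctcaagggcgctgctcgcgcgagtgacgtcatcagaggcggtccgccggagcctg
ZNF423, chr6:34930862-34930962, plus strand: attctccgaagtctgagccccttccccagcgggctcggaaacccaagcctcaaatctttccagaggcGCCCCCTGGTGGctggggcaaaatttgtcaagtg
ZNF667, chr6:60638630-60638730, plus strand: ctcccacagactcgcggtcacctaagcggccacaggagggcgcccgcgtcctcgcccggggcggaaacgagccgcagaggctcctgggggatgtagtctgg
ZNF583, chr6:60721691-60721791, minus strand: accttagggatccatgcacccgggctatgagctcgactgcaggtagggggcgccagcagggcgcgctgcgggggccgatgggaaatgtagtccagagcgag

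ZNF346 holds 2 matches, 1 on each strand, and ZNF614, ZNF593 and ZNF423 hold 1 each. ZNF496 held 1 at its replicate 1 summit and had no CTCF peak at the start in replicate 2. The windows of ZNF667 and ZNF583, which have the highest peaks, hold none of these letters in this order. A miss says only that the exact letters were absent, as they were at most CTCF summits on these chromosomes. Looser forms of the motif were not searched.

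In the gene bodies, CTCF summits were sparser in clustered than in single members. A summit was counted where it lay inside the gene record and more than 1 kb from the TSS, and counts were summed over members and divided by the summed length. Members as a whole had 1.66 and 1.85 CTCF summits per 100 kb (1.75 ± 0.133, SD, n = 2), close to 1.69 and 1.87 over all protein-coding genes. Among genes up to 100 kb long they were sparser, with 1.79 in both replicates for members and 2.29 and 2.51 for all such genes. Clustered members had 0.868 in both replicates, from 10 summits each, and single members had 2.10 and 2.40, from 43 and 49. A CTCF summit in both replicates was found in the body of 8 clustered members (15.7%) and of 18 single members (41.9%), against 42.8% of all genes. Single members up to 100 kb long had 3.13 in both replicates, so the contrast was larger without the longest genes. The other genes up to 100 kb on these chromosomes had 2.63 and 2.86. The 86 zinc finger genes with a locus number resembled the clustered members, at 0.756 and 0.945.

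The same contrast followed the KRAB letters. The 42 members with them had 0.707 CTCF summits per 100 kb in both replicates, from 7 summits each. The 52 without had 2.08 and 2.36, from 46 and 52. The 52 lack only the searched letters and can include genes with a KRAB domain, such as ZNF496. Clustered members with the letters had 0.461 in both replicates, from 3 summits each. Single members with them had 1.18, from 4 each, and these counts are too small to compare the 2 groups. Of the tiles in the bodies, 96.9% were unique in clustered and 98.4% in single members, and 95.6% and 98.8% in members with and without the letters. The part of uniqueness in the CTCF densities was not tested. Over the whole span of the 19 clusters, 1605 kb in all, CTCF had 1.43 and 1.37 summits per 100 kb, against 1.99 and 2.19 on chromosome 6. H3K4me3 was denser there than on the chromosome, at 4.55 and 4.48 against 2.14 and 2.23. The spans run from the first to the last base of member genes, so they hold gene starts by definition. The chromosome values include the sequence between genes, and spans with as many gene starts were not compared.

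An H3K27ac summit in both replicates was found in the body of 40 members (42.6%), against 43.9% of all genes. H3K27ac in gene bodies was also sparser in clustered members (2.52 and 2.69 per 100 kb) than in single ones (4.16 and 4.30). Single members up to 100 kb long had 3.26 and 3.51, so that the contrast was smaller without the longest genes. Members as a whole had 3.57 and 3.72, against 3.59 and 3.98 over all genes. Of these summits, 59 of 114 and 60 of 119 lay in the 4 members longer than 100 kb. Without them all members had 2.82 and 3.03, against 4.45 and 5.11 over all genes up to that length. Members with the KRAB letters had 1.41 and 1.72, and those without had 4.53 and 4.62. H3K4me3 had 2.72 in both replicates over all members, against 1.37 and 1.72 over all genes, and the clustered and single values were 2.52 and 2.43 against 2.84 and 2.89, or 2.51 in both replicates for single members up to 100 kb. Up to 100 kb of length the members had 2.51 and 2.46 and all such genes had 1.92 and 2.27. The other genes of that length on chromosomes 2 and 6 had 2.43 and 2.66, so members were slightly higher in replicate 1 and lower in replicate 2. An H3K4me3 summit in both replicates was found in the body of 41 members (43.6%), against 33.3% of all genes. Up to 100 kb, the shares were 41.1% of members and 27.1% of the other genes on chromosomes 2 and 6. The median lengths of these 2 groups were 19.9 and 12.1 kb, so the shares are not matched for length. Counting overlap of the whole peak instead of its summit gave a mean of 4.60 per 100 kb in place of 2.72.

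**Figure D5:**
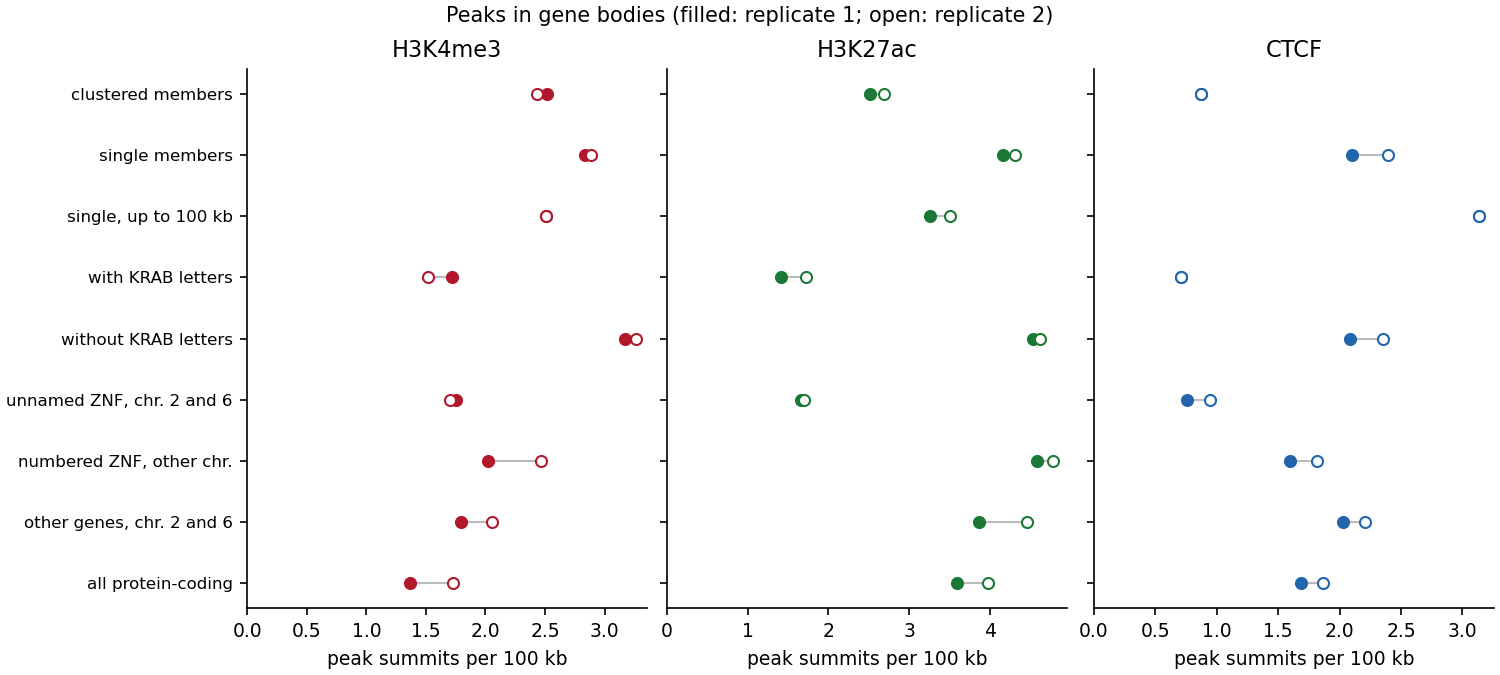
Peak summits per 100 kb of gene body, more than 1 kb from the TSS, in replicate 1 (filled) and replicate 2 (open), by gene group and mark. For CTCF, clustered members (0.868) and members with the KRAB letters (0.707) lie near the zinc finger genes with a locus number (0.756 and 0.945), and single members (2.10 and 2.40) lie near the other genes on these chromosomes (2.03 and 2.21).

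The 4 longest members carried the most H3K4me3 and H3K27ac body summits, as counts not divided by gene length. ZNF521, on chromosome 6 and 289 kb long, had 34 and 31 H3K27ac summits in its body, 9 and 10 H3K4me3 summits and 3 and 5 CTCF summits. Its highest H3K27ac summits, 21.2 in the first replicate and 19.04 in the second, lay in introns. ZNF423, 370 kb long, is a paralogue of ZNF521 known to commit cells to the adipocyte lineage. It had 12 and 12 H3K4me3, 12 and 13 H3K27ac, and 6 and 9 CTCF summits. ZNF536, 482 kb long and known from neurons, had 9 and 11 H3K4me3, 7 and 9 H3K27ac, and 9 and 10 CTCF summits. It was the member with H3K4me3 but no H3K27ac at its gene start. The H3K4me3 peak there had 51.6 and 24.7, with summits 4374 and 4381 bp inside the gene. Within 1 kb of another of its annotated transcript starts, H3K27ac was present at 5.88 and 5.74, with summits 2401 and 2019 bp inside the gene. ZNF608 on chromosome 2, 109 kb long, had 8 and 6 H3K4me3, 6 and 7 H3K27ac and no CTCF summits. The order differed by mark, since ZNF521 led for H3K27ac, ZNF423 for H3K4me3 and ZNF536 for CTCF. ZNF469, 46.9 kb long, came next for CTCF with 2 and 3 summits, level with ZNF683 with 3 and 2 (named after the values were seen), and its highest, at 32.1 and 31.7, lay in an exon.

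The coding stretch of the fingers was examined by itself. In the 62 members whose fingers all lie in the last coding exon, the finger stretches sum to 58.5 kb. They held 1 CTCF summit in each replicate, in ZNF469, and no H3K4me3 or H3K27ac summit. These counts are too small to be read as low or high for any mark. Of all CTCF body summits, 36 of 53 and 43 of 59 lay in introns and 11 and 9 in exons. Of the 87 H3K4me3 body summits in each replicate, 28 and 26 lay within 1 kb of another annotated start of the same member and 9 within 1 kb of the start of another gene.

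The partners through which KRAB zinc finger proteins act were listed as well. Of 17 listed co-repressor genes 16 were found, and 14 of these had H3K4me3 and H3K27ac at the start in both replicates, against 58.9% of all genes. TRIM28, the scaffold that binds the KRAB domain and itself on chromosome 6, had H3K4me3 folds of 57.8 and 28.7 and H3K27ac folds of 14.6 and 17.02. SETDB1, the methyltransferase it recruits, had 46.6 and 37.5 and 21.8 and 22.3, with CTCF at 29.6 and 45.0. The exceptions were DNMT1 and UHRF1, which maintain DNA methylation, and both had H3K4me3 at another annotated transcript start.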

How the data were processed

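ChIP-seq of H3K4me3, H3K27ac and CTCF in PEFs was taken as 6 libraries, grouped by the labels. The authors mapped reads with bowtie2, kept uniquely mapped pairs, removed duplicates with Picard and called peaks per library with MACS2 against an input. The deposited lists give each peak a score (not used), a ratio (fold enrichment over input), and p-values and q-values as −log10. The methods state a q-value of 0.01, while 0.0560% to 3.06% of peaks exceed it, and all were used.

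Peaks were joined to RefSeq genes of Sscrofa11.1 (28077 genes on chromosomes 1 to 18 and X) in Python 3.11.15 with pandas 2.3.3, by 1 bp overlap with the TSS window, or by summit in the gene body. The assignment was tested on simulated peaks. Sequences came from the RefSeq genome. Uniqueness was measured with minimap2 2.31-r1302. The named members were the 6 highest folds and 4 highest body counts per mark, the first 8 without any peak at the start, the ZSCAN genes, and the largest clusters. Members and lists were chosen with earlier results of these data known. Alternatives were a −log10 q of at least 5, summits, other transcript starts, distances between starts, interval overlap and each replicate alone.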

Additional observations from a re-analysis of the deposited data

How the results depend on the processing

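Of 48 recomputed values of the 9 main results, 17 moved by more than the spread between replicates or, for counts, by more than 1.5 times. None of the differences between clustered and single members changed sign. The counts and the summits per 100 kb cannot be negative, so a change of sign was not possible for them. For H3K4me3 the clustered minus single share was 10.3 points with a −log10 q of at least 5, 6.63 with summits within 1 kb of the TSS, 6.11 with any transcript start and 4.03 with 50 kb between starts, in place of 9.17. For H3K27ac these were 11.5, 6.52, 6.11 and 4.03. The replicates gave identical shares, so any change counted as a move. For CTCF the difference was 7.99 points with 50 kb between starts, in place of 2.71. The cause of these shifts was not tested. The number of members with CTCF at the start was 16 with any transcript start, and 11 to 18 with either replicate left out. H3K4me3 summits per 100 kb of gene body were 2.41 with the stricter q-value, 4.60 with interval overlap and 2.49 without members over 100 kb (added after seeing the data), and H3K27ac summits were 2.74, 5.005 and 2.92.

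No paired analysis was possible because the results come from no test, and the groups are different antibodies. Peak lists hold no read counts, so a start without a peak is one where none was called, not one shown to lack the mark.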
